A study of Rattus norvegicus with 32 samples.

Results

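The levels of 6 genes of cholesterol synthesis and sterol transfer were followed in the red tibialis anterior, an oxidative hindlimb muscle, of male Zucker rats. The genes were Idi1, Fdft1, Sqle, Hsd17b7 and Sc5d, which encode enzymes of the synthesis pathway, and Gramd1b, which encodes a sterol carrier protein. They were taken from a list of 8 symbols. Each was read from the array feature annotated to that symbol alone, with the highest mean over the 32 arrays where there were several. No such feature was found for Hmgcs1 and Lss, which are not analysed here. The 6 genes all passed the filter on dim genes and were among the 10918 genes tested, of 14557 with a feature of 1 symbol.

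Total RNA was measured on 1 Affymetrix array per rat, with 8 rats in each of 4 groups, all aged 18 weeks after 12 weeks of feeding. The ALA group were obese rats given the AIN-93G diet with 10% flaxseed oil, which is rich in alpha-linolenic acid. The LA group were obese rats given the same diet with 10% safflower oil, which is rich in linoleic acid. Intake in both oil groups was matched to the calories eaten by the obese controls. Obese control and lean control rats ate AIN-93G freely. Zucker obesity comes from a faulty leptin receptor carried in every tissue, so leptin signalling may be impaired in the muscle itself as well. It was not measured here. All values are log2 intensities, and intensities of different features are not compared with each other.

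Cells make cholesterol from acetyl-CoA through mevalonate and squalene, and most genes of the route are switched on together by SREBP transcription factors when the sterol content of the endoplasmic reticulum is low. Skeletal muscle makes little cholesterol compared with liver, but needs the route for its membranes and for isoprenoids such as ubiquinone. Idi1 interconverts the isoprene building blocks, Fdft1 is squalene synthase and Sqle, squalene epoxidase, carries out a rate-limiting step. Hsd17b7 is the keto-reductase of sterol demethylation, and Sc5d, lathosterol oxidase, acts close to the end of the route. Gramd1b, also called Aster-B, carries cholesterol from the plasma membrane to the endoplasmic reticulum.

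Promoter sequences are shown for the 3 of the 6 genes found in the RefSeq table (build GRCr8), because genes of the sterol route are known to share promoter elements. Each runs 5′ to 3′ along the gene, from 250 bases before to 50 after the annotated start, and all 3 genes lie on the minus strand. Capitals mark ATTGG, the reverse complement of CCAAT, the element bound by NF-Y.
Idi1, chr17:66547475-66547774: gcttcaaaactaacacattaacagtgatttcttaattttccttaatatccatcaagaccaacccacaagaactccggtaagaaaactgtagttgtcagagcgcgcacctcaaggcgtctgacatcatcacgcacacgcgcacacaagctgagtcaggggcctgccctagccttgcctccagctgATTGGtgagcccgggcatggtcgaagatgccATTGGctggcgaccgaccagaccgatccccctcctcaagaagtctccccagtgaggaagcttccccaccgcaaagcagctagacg
Hsd17b7, chr13:84722705-84723004: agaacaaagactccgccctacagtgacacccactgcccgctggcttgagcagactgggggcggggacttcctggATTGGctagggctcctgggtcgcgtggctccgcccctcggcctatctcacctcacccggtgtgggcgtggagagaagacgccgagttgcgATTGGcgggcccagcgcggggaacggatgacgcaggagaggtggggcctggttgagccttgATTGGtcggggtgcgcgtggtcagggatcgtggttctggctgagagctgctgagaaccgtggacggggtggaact
Sc5d, chr8:51538228-51538527: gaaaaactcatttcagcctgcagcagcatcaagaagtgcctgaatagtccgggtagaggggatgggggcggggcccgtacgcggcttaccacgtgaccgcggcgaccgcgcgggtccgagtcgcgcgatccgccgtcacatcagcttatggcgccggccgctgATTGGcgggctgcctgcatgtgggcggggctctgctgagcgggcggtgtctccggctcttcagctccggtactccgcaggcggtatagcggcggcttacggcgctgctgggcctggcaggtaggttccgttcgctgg
CCAAT was searched on both strands and was found in all 3 windows, 2 times in Idi1, 3 times in Hsd17b7 and 1 time in Sc5d, each time on the strand not printed. The same letters were found in 37.5% of the 33469 promoters of the table. GGGCGG, the GC box, was found on either strand 3 times in Hsd17b7, 3 times in Sc5d and not in Idi1, and in 33.1% of all promoters. TCACNCCAC, a form of the sterol regulatory element, was in none of the 3 windows and in 1.12% of all promoters. Other forms of the element were not searched, so it may still be present. These motifs did not overlap each other in the 3 windows, and a match of letters is a description of the sequence only.

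The arrays carried the RNA of muscle fibres. The 7 fibre markers with a feature, Acta1, Ckm, Mb, Des, Tnnt3, Myh4 and Myh7, averaged 11.73 ± 0.14 in ALA, 11.83 ± 0.21 in LA, 11.61 ± 0.15 in obese control and 12.00 ± 0.04 in lean control rats (SD, n = 8 each). Most of the spread between these means came with Myh7, the slow-fibre myosin, at 8.14 in ALA, 8.90 in LA, 7.48 in obese control and 10.02 in lean control rats, while Myh4, a fast-fibre myosin, had 12.17, 12.05, 12.00 and 12.08 in the same order of groups. Some arrays stood apart. Obese control rat 5 had a mean of 9.02 over 8 hepatocyte markers, against 3.58 to 4.25 in the other 31 rats. Obese control rats 4 and 7 had 10.64 and 10.80 for Chrna1, a subunit of the muscle acetylcholine receptor, against 6.00 to 7.54 in the other 6 obese controls. LA rats 7 and 8 had means of 7.43 and 6.19 over 5 tendon markers, above the other 30 rats, whose highest value was 5.67. ALA rat 3 had the highest Gramd1b value of its group and the lowest Hsd17b7, Idi1 and Sc5d values. Many of the differences below are also given without the obese control or LA rats named here, or without all 6 of these arrays.

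The comparison of flaxseed with safflower oil asks whether the kind of oil mattered at matched intake. Whole oils were given, so their fatty acids and other contents cannot be told apart. Sc5d, Hsd17b7 and Gramd1b had higher mean levels in ALA than in LA rats, by 1.22-fold, 1.2-fold and 1.41-fold. Their 95% confidence intervals did not include 0, but none passed the test once adjusted over all genes. Fdft1 and Idi1 had smaller differences of the same sign, and Sqle a small difference of the opposite sign, all within the spread between rats. None of the 6 genes was called at an adjusted p below 0.05 by limma with Benjamini-Hochberg adjustment, and neither was any other gene, a background of 0%. At an unadjusted p below 0.05 there were 3 of the 6 genes, all higher in ALA rats, against 6.94% of all genes in either direction and 2.81% higher. The median difference of the 6 genes was 0.19, against -0.0009 for all genes tested, whose 5th and 95th percentiles were -0.22 and 0.16. The 6 genes were chosen with earlier results of these data known. Such shares and medians, here and in the comparisons below, therefore describe the 6 genes and do not test them as a set.

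Sc5d had a lowest, median and highest log2 intensity of 6.64, 6.81 and 7.07 in ALA rats, against 6.35, 6.52 and 6.86 in LA rats. The ranges overlapped, but 6 of the 8 LA rats lay below every ALA rat and 3 ALA rats lay above every LA rat. The difference of the means was 0.29 ± 0.088 (SE, n = 8 each; 95% confidence interval 0.11 to 0.47), with an unadjusted p of 0.00263 and an adjusted p of 0.491 by limma. Sc5d introduces the double bond that turns lathosterol into the direct precursor of cholesterol.

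Hsd17b7 showed 4.50, 4.81 and 4.96 as the lowest, median and highest value in ALA rats, against 4.27, 4.47 and 4.89 in LA rats. Here 5 LA rats lay below every ALA rat, while 2 ALA rats lay above every LA rat. Its difference was 0.27 ± 0.087 (SE; interval 0.09 to 0.44; unadjusted p = 0.00397, adjusted p = 0.491 by limma).

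Gramd1b, the sterol carrier, ran from 6.51 over a median of 6.75 to 7.42 in ALA rats, against 5.61, 6.38 and 6.86 in LA rats. The groups overlapped, with 4 LA rats below every ALA rat and 2 ALA rats above every LA rat. Its difference of 0.49 ± 0.17 (SE; interval 0.14 to 0.84) was the largest of the 6 genes and had an unadjusted p of 0.00718 and an adjusted p of 0.498 by limma. Gramd1b also varied most within groups, with a pooled SD of 0.37, which was larger than that of 95.4% of the genes tested. Without LA rats 7 and 8 the difference was 0.37, and without these 2, ALA rat 3 and obese controls 4, 5 and 7 it was 0.28. In the same fits Sc5d had 0.25 and 0.28 and Hsd17b7 0.28 and 0.32. ALA rat 3 had the highest Gramd1b and the lowest Sc5d and Hsd17b7 values of its group. Leaving it out therefore lowers the Gramd1b difference and raises those of Sc5d and Hsd17b7.

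Fdft1, which commits farnesyl diphosphate to sterols, had values of 8.43, 8.58 and 8.81 in ALA rats, against 8.30, 8.45 and 8.72 in LA rats. Its groups overlapped over most of their range, and the difference of 0.12 had an interval of -0.03 to 0.27 (adjusted p = 0.748 by limma). Idi1 had 3.40, 3.85 and 4.14 in ALA rats, against 3.42, 3.73 and 4.03 in LA rats, a difference of 0.11 (interval -0.12 to 0.33) that was 0.07 without LA rats 7 and 8. Sqle had 3.89, 4.04 and 4.16 in ALA rats, against 3.93, 4.11 and 4.33 in LA rats, a difference of -0.05 (interval -0.21 to 0.10). These 3 intervals all included 0, and the widest of them, that of Idi1, still allowed a difference of 0.33. Idi1 and Sqle were dim, with means over all arrays of 3.8 and 4.09 where genes below 3.35 were left out, and intensities of dim features understate differences.

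**Figure D1:**
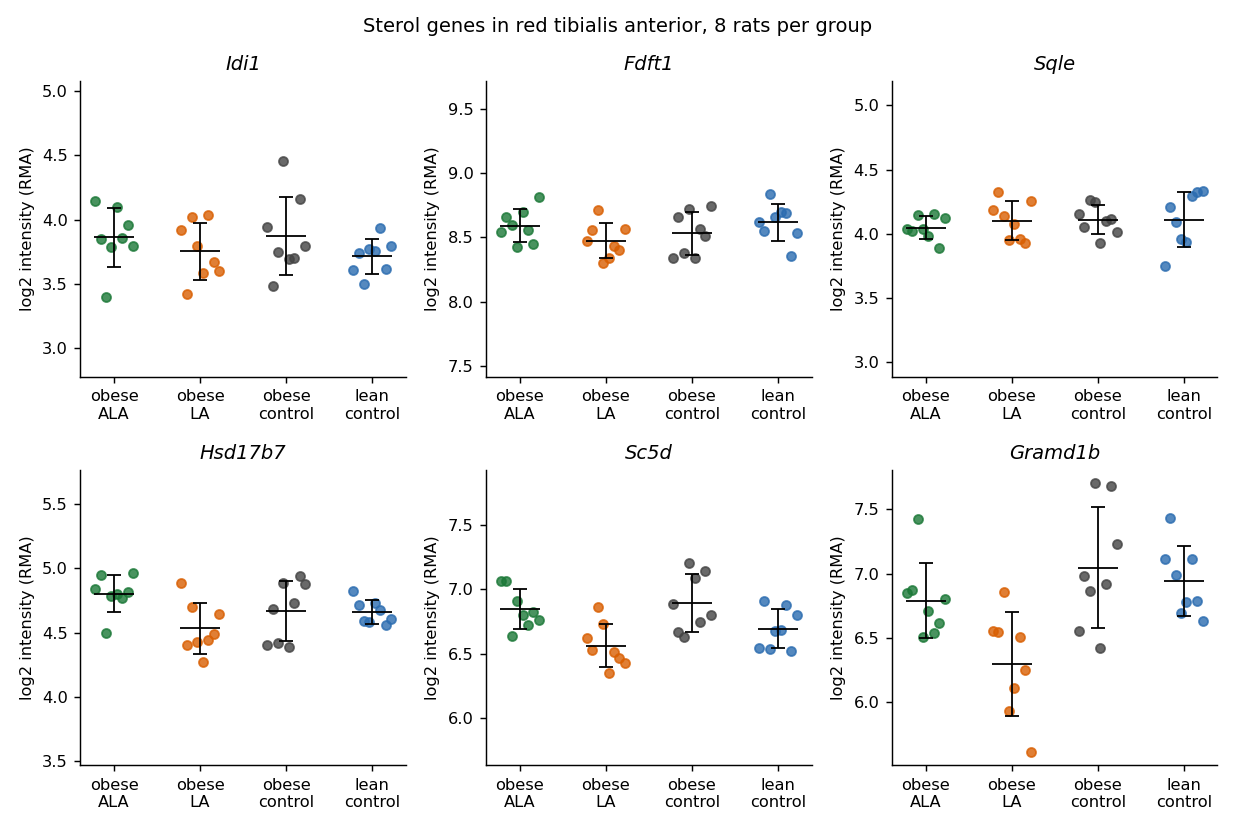
Log2 intensity of the 6 sterol genes in each rat (points), by group, with the group mean and SD (bars), each panel on its own axis. Most LA rats sit low for Sc5d, Hsd17b7 and Gramd1b, and the groups lie over each other for Sqle and Idi1.

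Markers of other cells differed between the same groups of rats. Of 8 macrophage markers, 8 were lower in ALA than in LA rats, 6 of them at an unadjusted p below 0.05 and none called. The mean of the 8 lay between 4.98 and 5.67 in ALA rats, against 5.38 to 6.54 in LA rats. Of these markers Cd68 and Adgre1 were dim, with means over all arrays of 3.89 and 3.72. The 6 fibroblast markers were all lower in ALA rats as well, with a median difference of -0.29, and so were the 4 tendon markers tested, with a median of -0.70, and the 8 adipocyte markers, with a median of -0.13. These 3 medians rested largely on LA rats 7 and 8: without them they were -0.09, 0.10 and -0.02, with 4 of 4 tendon markers higher in ALA rats. Without them too the 8 macrophage markers were all lower in ALA rats, with a median of -0.30 in place of -0.49 and 3 at an unadjusted p below 0.05. The 4 hepatocyte markers tested were all lower in ALA rats, with a median of -0.18 and none at an unadjusted p below 0.05 (0 of 4). Of 4 endothelial markers 3 were lower and 1 higher, with a median of -0.05, 1 at an unadjusted p below 0.05 and none called. Schwann cell and muscle fibre markers had medians of -0.05 and -0.01. The Schwann cell markers were dim, with group means from 3.94 to 3.96. So were the adipocyte markers Lep, Cfd, Cidec, Retn and Pck1, with means over all arrays from 3.37 to 4.03. Differences of such dim markers are understated. The part of these cells in the differences of the sterol genes was not tested, and in whole muscle fewer cells of a type and less RNA per cell cannot be told apart.

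**Figure D2:**
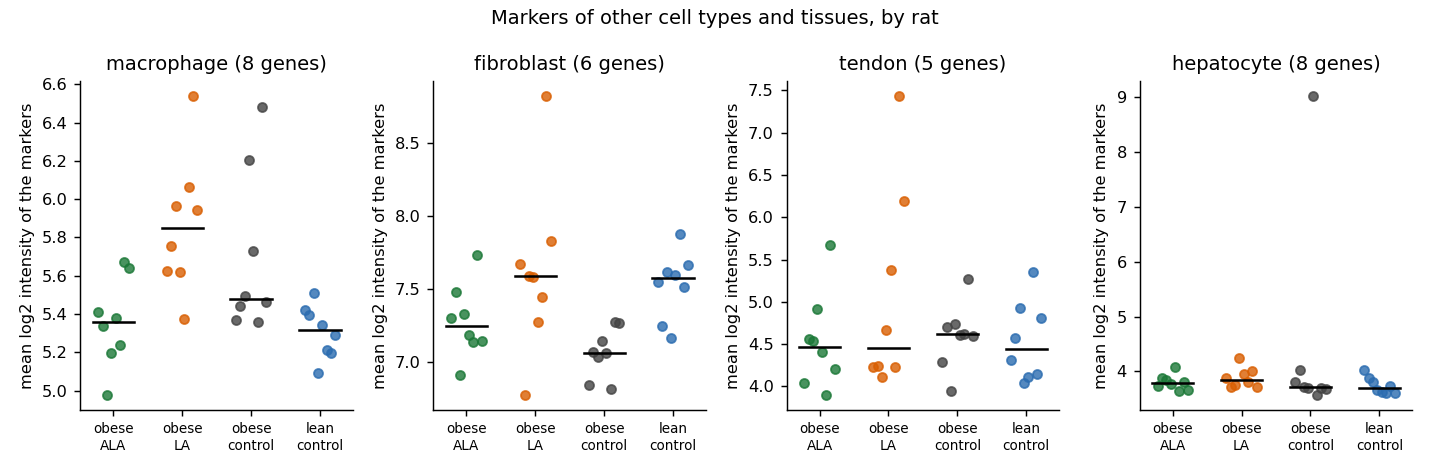
Mean log2 intensity of the markers of 4 other cell types and tissues in each rat (points), with the group median (line), each panel on its own axis. LA rats have the highest median for macrophage markers, LA rats 7 and 8 stand out for tendon and obese control rat 5 for hepatocyte markers.

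LA rats were then set against obese controls, which differ from them in both the oil and the free access to food. All 6 genes had lower means in LA than in obese control rats, with a median of -0.13 against -0.002 for all genes. This did not hold without obese controls 4 and 7, where Idi1 at 0.03 and Sqle at 0.02 were higher in LA rats, nor without the 6 arrays, where Idi1 was higher by 0.06. Gramd1b was 1.68-fold lower and Sc5d 1.26-fold lower. None of the 6 was called, and the background was 0%. At an unadjusted p below 0.05 there were 2 of the 6, against 6.25% of all genes.

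Gramd1b had 5.61, 6.38 and 6.86 as lowest, median and highest value in LA rats, against 6.42, 6.95 and 7.71 in obese controls. Of the 8 obese controls, 6 lay above every LA rat. The difference was -0.75 ± 0.17 (SE; interval -1.10 to -0.40; unadjusted p = 0.000122, adjusted p = 0.252 by limma). Without obese controls 4 and 7, which had the highest Gramd1b values of all 32 rats at 7.71 and 7.68, it was -0.53, and without the 6 arrays named above it was -0.49.

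Sc5d had 6.35, 6.52 and 6.86 in LA rats, against 6.63, 6.84 and 7.21 in obese controls. The 6 lowest values among the 24 obese rats were all from LA rats. The difference was -0.33 ± 0.088 (SE; interval -0.51 to -0.15; unadjusted p = 0.000614, adjusted p = 0.325 by limma). It was -0.24 without obese controls 4 and 7 and -0.14 without the 6 arrays. Hsd17b7, Idi1, Fdft1 and Sqle had differences of -0.13, -0.12, -0.06 and -0.01, each with an interval that included 0. Without obese controls 4 and 7 those of Hsd17b7 and Fdft1 were -0.05 and -0.03. The 6 fibroblast markers were all higher in LA rats, each at an unadjusted p below 0.05 and none called, with means between 6.77 and 8.82 in LA rats against 6.81 to 7.27 in obese controls. The highest LA means were those of rats 7 and 8, at 8.82 and 7.83, and the group medians were 7.59 in LA rats and 7.06 in obese controls. Of 8 macrophage markers 7 were higher and 1 lower in LA rats, with a median of 0.04 and none called. The part of these markers in the differences of Gramd1b and Sc5d was not tested.

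In ALA rats set against obese controls, differences of both signs were found. ALA rats had higher means for 2 of the genes and lower means for 4, with a median of -0.03. None was called, with a background of 0%, and none had an unadjusted p below 0.05, against 8.41% of all genes. Sc5d differed by -0.05 (interval -0.23 to 0.13), Fdft1 by 0.06, Sqle by -0.06 and Idi1 by -0.01. Hsd17b7 had a difference of 0.13 (interval -0.04 to 0.31) and Gramd1b one of -0.26 (interval -0.61 to 0.09). Without obese controls 4 and 7 these were 0.22 and -0.04, and in the same fit Idi1 and Sc5d turned to 0.13 and 0.05. Without the 6 arrays Idi1 and Sc5d were at 0.19 and 0.13. The 3 comparisons among obese rats share groups, so they are not independent of each other.

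**Figure D3:**
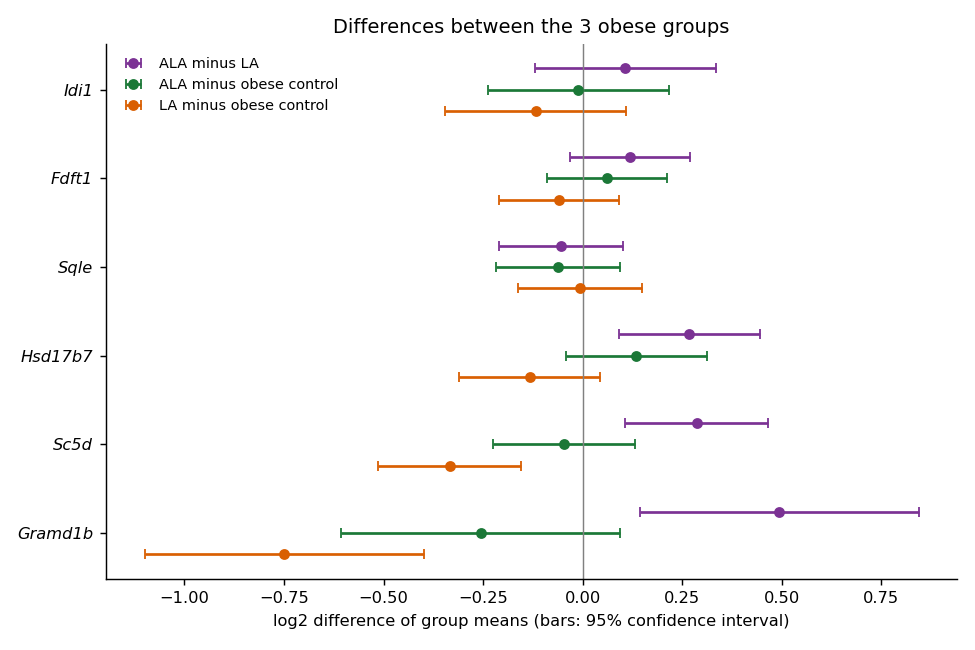
Difference of the group means on the log2 scale for each of the 6 genes among the 3 obese groups (points) with its 95% confidence interval (bars), from limma. The LA group lies low for Sc5d and Gramd1b against both other obese groups, and the intervals of Idi1, Fdft1 and Sqle all cross 0.

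Genotype was examined in obese against lean rats on the same diet. Obese controls had higher means for 4 of the 6 genes and lower means for 2, with a median of 0.06, and none was called, against 1.76% of all genes tested. Sc5d had 6.63, 6.84 and 7.21 in obese controls, against 6.52, 6.68 and 6.91 in lean controls. Both ranges overlapped between 6.63 and 6.91, and the difference was 0.20 (interval 0.02 to 0.38; unadjusted p = 0.0289, adjusted p = 0.269 by limma). At an unadjusted p below 0.05 it was the 1 gene of the 6, against 14.8% of all genes. The difference of Sc5d was 0.11 without obese controls 4 and 7 (unadjusted p = 0.224 by limma), 0.17 without obese control 5 (0.0639) and 0.05 without the 6 arrays (0.560). Idi1, Gramd1b, Hsd17b7, Sqle and Fdft1 had differences of 0.16, 0.10, 0.01, -0.001 and -0.09. Without obese controls 4 and 7 those of Idi1, Gramd1b and Hsd17b7 were 0.01, -0.11 and -0.07, and Sqle was at 0.02 without obese control 5. The 8 macrophage markers were all higher in obese than in lean controls, with 1 called and a median of 0.36, which was 0.12 without obese controls 4 and 7, whose means over the 8 were 6.202 and 6.480. Of 6 fibroblast markers 5 were lower and 1 higher in obese controls, with 2 called and a median of -0.51. Of 4 endothelial markers 2 were lower and 2 higher, with 2 called and a median of -0.26. Of 7 muscle fibre markers 6 were lower and 1 higher, with 1 called and a median of -0.05. The part of all these markers in the Sc5d difference was not tested.

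Each oil group was also set against lean controls, which differ from both in genotype, in the oil and in free access to food. These cannot be told apart in a comparison of an oil group with lean controls. Between ALA rats and lean controls none of the 6 genes was called, against a background of 0.888% of genes, and 0 of 6 had an unadjusted p below 0.05, against 9.32%, while the differences lay between -0.15 for Gramd1b, which was -0.24 without the 6 arrays, and 0.15 for Sc5d. Between LA rats and lean controls 1 of the 6 was called, Gramd1b, against a background of 1.62% of genes called and 0.934% called lower. It was also the 1 gene of the 6 with an unadjusted p below 0.05, against 13.5% of all genes. Gramd1b was 1.57-fold lower in LA than in lean rats, with values of 5.61, 6.38 and 6.86 against 6.63, 6.89 and 7.43. Of the 8 LA rats, 7 lay below every lean rat, so the groups overlapped through 1 LA rat. The difference was -0.65 ± 0.17 (SE; interval -0.997 to -0.296; adjusted p = 0.0439 by limma).

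This call lay close to the threshold. It was lost with no filter on dim genes (adjusted p = 0.0548), with every feature tested (0.105), after a second quantile normalisation (0.0502), with a robust variance prior (0.0512) and without LA rats 7 and 8 (-0.52, adjusted p = 0.142). Leaving out 1 lean control at a time lost it for rats 1, 2, 3, 5 and 6, with adjusted p-values of 0.0764, 0.0970, 0.0701, 0.0550 and 0.0895. Leaving out ALA rats 1 or 2, which enter through the shared spread, gave 0.0517 and 0.0506, and leaving out LA rats 4, 5, 6, 7 or 8 gave 0.0970, 0.0824, 0.0504, 0.0613 and 0.1015. Of these fits, only the second quantile normalisation and those without LA or lean rats could change the difference itself. It kept its sign in them. In the same 2 groups the 8 macrophage markers were all higher in LA rats, 3 of them called, with a mean between 5.38 and 6.54 in LA rats against 5.09 to 5.51 in lean controls. The 8 adipocyte markers were all higher in LA rats as well, with 1 called and a median of 0.30. Of 4 endothelial markers 3 were lower and 1 higher, with 1 called and a median of -0.28. Of 6 fibroblast markers 4 were higher and 2 lower, with none called. The part of all these markers in the Gramd1b difference was not tested.

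The order of the group means differed between the genes. For Sc5d it ran, from low to high, LA, lean control, ALA and obese control, and for Gramd1b LA, ALA, lean control and obese control. For Hsd17b7 it was LA, lean control, obese control and ALA. LA rats were lowest for these 3 genes and for Fdft1, lean controls for Idi1 and ALA rats for Sqle. Between neighbours in these orders, the interval excluded 0 for LA and ALA in Gramd1b only, and all neighbours of Sc5d and Hsd17b7 had intervals that included 0.

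Across the 32 arrays the 6 genes varied together only in part. Idi1 and Sc5d had the highest correlation (Pearson r = 0.67, and 0.69 after centring each group), followed by Fdft1 and Hsd17b7 (0.58 and 0.55 after centring). Gramd1b correlated with Sc5d at 0.51, and at 0.31 after centring. Sqle stood apart, with correlations between -0.11 and 0.12 with the other 5. These values describe features measured on the same arrays and so share each array's RNA quality and cell mixture.

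The genes most like the 6, by correlation with the mean of the 6 after scaling each to mean 0 and SD 1 over the 32 arrays, were Inppl1 (0.79), Dynlt1 (0.72), Rb1 (0.72), G6pc3 (0.71), Chrnb1 (0.71), Chrna1 (0.71), Sh3pxd2a (0.70) and Scd2 (0.70). Inppl1 encodes a lipid phosphatase, Chrna1 and Chrnb1 encode subunits of the muscle acetylcholine receptor, and Scd2 encodes a fatty acid desaturase. Chrna1 and Chrnb1 were high in obese controls 4 and 7, at 10.64 and 10.80 and at 7.99 and 8.23, the same rats that were highest for Gramd1b. Lean control rat 2 had 9.497 for Chrna1 as well, against 7.15 to 7.49 in the other 7 lean controls, and its Gramd1b value of 7.43 was the highest of its group. After each group was centred on its own mean, 4 of these 8 genes were again among the 8 most alike, and Ube2o led with 0.86. None of the 8 was called in any comparison.

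The surroundings of the 6 genes were read from 77 further genes in 8 lists, 7 of the sterol pathway and 1 of fatty acid synthesis, of which 57 had a feature and 54 were tested. In ALA against LA rats 28 of the 54 were higher and 26 lower, with a median of 0.01 and none called. At an unadjusted p below 0.05 there were 6, or 11.1%, against 6.94% of all genes, and all 6 were higher in ALA rats. These were Npc1, Npc2, Srebf1, Cyp27a1, Coq2 and Fdps. All 6 belong to the 44 tested genes of the sterol lists, of which 25 were higher in ALA rats and 19 lower. Without LA rats 7 and 8 there were 5 of the 54, all higher in ALA rats. Coq2 and Fdps were no longer among them (unadjusted p = 0.260 and 0.219 by limma), and Pggt1b was (0.0286). Without the 6 arrays there were 3, and without obese control 5 there were 8, of which 6 were higher in ALA rats. The lists were chosen with earlier results of these data known, so such shares, here and below, describe the lists and do not test them. Genes of the lists without a feature of their own are not analysed here.

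Npc1 and Npc2 pass cholesterol out of the lysosome. Npc1 had 7.08, 7.26 and 7.46 as lowest, median and highest value in ALA rats, against 6.79, 6.99 and 7.11 in LA rats. The groups barely overlapped, with 7 LA rats below every ALA rat and 6 ALA rats above every LA rat. The difference was 0.29 ± 0.079 (SE; unadjusted p = 0.00086, adjusted p = 0.460 by limma), close to that of Sc5d. Against obese controls, Npc1 differed by -0.23 in LA rats and by 0.06 in ALA rats (adjusted p = 0.627 and 0.844), and without obese controls 4 and 7 by -0.14 and 0.15. Npc2 differed by 0.18 between the oils (adjusted p = 0.601 by limma). Its means were 8.35 in ALA, 8.18 in LA and 8.15 in obese control rats. Of the other genes in this list Vldlr, a lipoprotein receptor, differed by 0.17 and Lrp1 by -0.20. Without LA rats 7 and 8 Vldlr differed by 0.04 and Lrp1 by -0.05.

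Srebf1 and Srebf2 encode the SREBP factors, and Insig1 and Scap hold them in or release them from the endoplasmic reticulum. Srebf1 had 7.26, 7.62 and 8.46 in ALA rats, against 6.63, 7.11 and 7.72 in LA rats. The ranges overlapped, and the difference was 0.63 (adjusted p = 0.491 by limma). Obese controls had the lowest mean of the obese groups, at 6.95, against 7.12 in LA and 7.75 in ALA rats. Srebf2, the factor that acts mainly on sterol genes, differed by 0.15 (adjusted p = 0.735), Insig1 by 0.16 and Scap by -0.06, which was -0.03 without LA rats 7 and 8. Insig1 also had its lowest mean among the obese groups in obese controls, at 6.52, against 6.67 in LA and 6.83 in ALA rats. Of the 7 tested genes in this list, 3 were higher in ALA than in LA rats and 4 lower.

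Among the other synthesis steps, Fdps, which makes farnesyl diphosphate between Idi1 and Fdft1, had 6.85, 7.45 and 7.77 in ALA rats, against 6.66, 7.17 and 7.45 in LA rats, a difference of 0.27 (adjusted p = 0.707) that was 0.17 without LA rats 7 and 8. Mvd and Pmvk, which act before Idi1, differed by 0.06 and -0.004, and Pmvk by 0.02 without the 6 arrays. Of the 5 further genes between squalene and cholesterol, 3 were higher in ALA rats and 2 lower, between -0.04 and 0.09. All 9 tested genes of these steps, Sc5d, Hsd17b7, Fdft1 and Sqle included, had lower means in LA rats than in obese controls over all arrays, with a median of -0.06 and none called. The differences ran from -0.33 to -0.003, so some were close to 0. That of Sqle, -0.007, turned to 0.02 without obese controls 4 and 7. On the isoprenoid branch, 7 of 8 genes were higher in ALA than in LA rats with a median of 0.03. Coq2, an enzyme of ubiquinone synthesis, had a difference of 0.19 (adjusted p = 0.641), or 0.09 without LA rats 7 and 8, and Pggt1b, a subunit of a prenyltransferase, 0.16. Mean levels of Coq2 were 8.34 in ALA, 8.15 in LA and 8.16 in obese control rats. Those of Fdps were 7.40, 7.13 and 7.31 in the same order.

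The 7 other tested sterol transfer genes showed differences between -0.13 and 0.10 between the oils, 4 higher and 3 lower in ALA rats. Gramd1c, a relative of Gramd1b, had -0.13, and the oxysterol-binding proteins Osbpl2 and Osbpl11 had 0.10 and -0.12, or 0.04 and -0.03 without LA rats 7 and 8. Gramd1c was dim, with group means from 3.65 to 3.82, and intensities of dim features understate differences. Of the genes of efflux, esterification and the liver X receptors, Cyp27a1, the sterol hydroxylase of mitochondria, differed by 0.22 (adjusted p = 0.578), the receptor Nr1h3 by 0.17 and Apoe by -0.22, with 3 of 8 higher. Mean levels of Cyp27a1 were 7.20 in ALA, 6.98 in LA and 7.16 in obese control rats. Of 10 genes of fatty acid synthesis, 3 were higher in ALA rats, with a median of -0.07. Its values were -0.40 for the desaturase Scd, -0.31 for Fads2, -0.21 for Elovl6 and 0.10 for Acss2. Elovl6 was dim as well, with group means from 3.65 to 4.03. Without LA rats 7 and 8 Scd differed by -0.24, Fads2 by -0.13, Acss2 by 0.04 and Apoe by -0.13, and without the 6 arrays Nr1h3 differed by 0.11 and Scd by -0.03.

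Of the 54 further genes, 3 were called in at least 1 comparison. In obese against lean controls 2 were called, or 3.70%, against 1.76% of all genes, and 11 had an unadjusted p below 0.05, or 20.4%, against 14.8%. In LA rats against lean controls 2 were called, or 3.70%, against 1.62%, and 13 had an unadjusted p below 0.05, or 24.1%, against 13.5%. In ALA rats against lean controls none was called by limma, against 0.888%, and 13 had an unadjusted p below 0.05, or 24.1%, against 9.32%. Scd was 4.07-fold higher in obese than in lean controls (adjusted p = 0.0128), with values of 5.90, 6.91 and 9.14 against 4.64, 4.83 and 6.66. The log2 difference of Scd was 1.73 without obese control 5 (adjusted p = 0.0291), 2.09 without obese controls 4 and 7 (0.0251) and 1.68 without the 6 arrays (0.0172). Vldlr was lower by 0.39 in obese controls and by 0.38 in LA rats, each against lean controls (adjusted p = 0.0284 and 0.0372). Its values were 8.29, 8.93 and 9.07 in LA rats and 8.32, 8.94 and 9.08 in obese controls, against 9.001, 9.23 and 9.37 in lean controls. Vldlr no longer passed the test in obese controls when rats 4 and 7 of that group were left out (-0.27, adjusted p = 0.166), nor in LA rats without LA rats 7 and 8 (-0.26, adjusted p = 0.158), while both held without the 6 arrays (adjusted p = 0.0343 in obese controls and 0.0240 in LA rats). Cyp27a1 was lower by 0.31 in LA rats against lean controls (adjusted p = 0.0491 by limma), with 6.66, 6.94 and 7.29 against 7.07, 7.30 and 7.48. This call was lost without obese control 5 (adjusted p = 0.0506), without LA rats 7 and 8 (0.112) and without the 6 arrays (0.103).

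**Figure D4:**
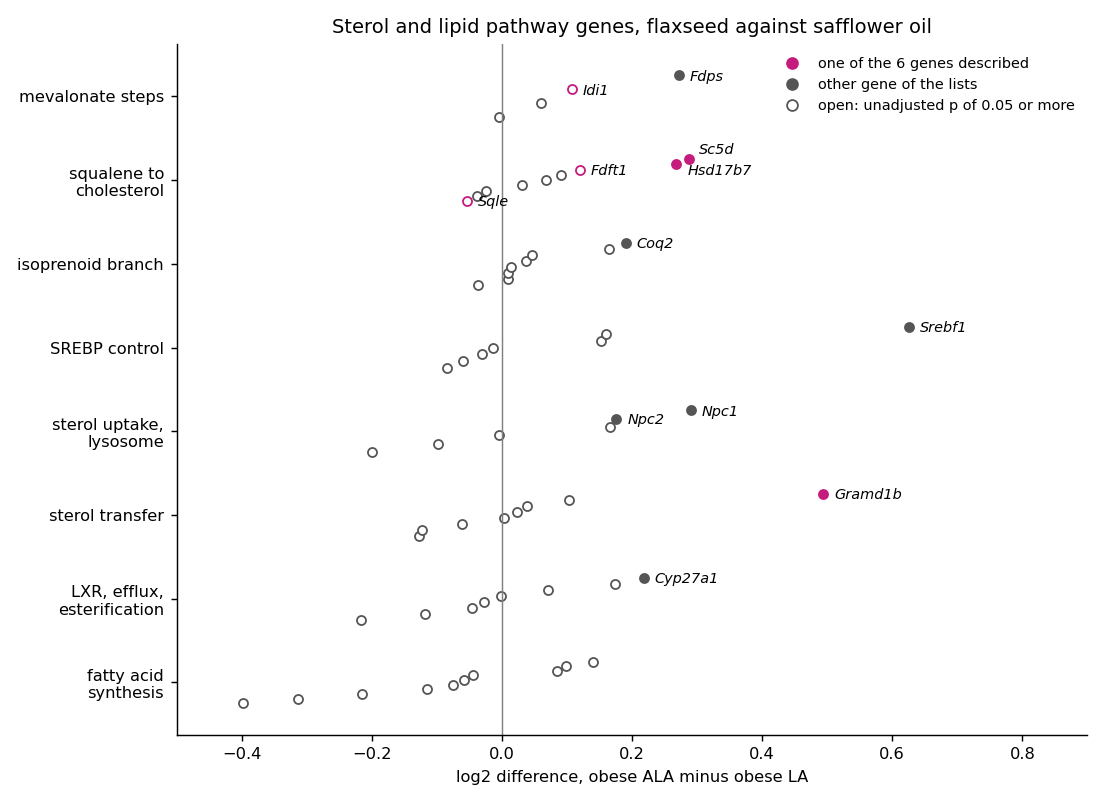
Difference between ALA and LA rats on the log2 scale for the 6 sterol genes and the 54 further genes tested, by list, with filled points for an unadjusted p below 0.05. The filled points are all to the right of 0, and none passed the adjusted test.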

How the data were processed

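The authors deposited log2 intensities made with RMA, per the submitters' processing notes; the RMA version is not given in the sources used here. RMA normalises arrays to a common distribution, which removes any shift that most genes have in common. Array medians lay between 3.83 and 3.99 and no 2 arrays were identical.

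For each gene the feature annotated to 1 symbol with the highest mean was used, and the dimmest 25% of genes were left out. A mean per group was fitted to 10918 genes with limma 3.58.1 in R 4.3.3, on 28 residual degrees of freedom. Two-sided p-values were adjusted over all genes of a comparison (Benjamini-Hochberg), and a gene was called below 0.05. The confidence intervals were not adjusted. Arrays were grouped as labelled, 1 rat each, and replicate numbers were not used as pairs because the labels do not pair the rats. Same-numbered arrays of different groups had a median correlation of deviations of 0.04, with 17 of 48 pairs above 0.1. Pairs with different numbers had -0.01 and 68 of 336. Same-numbered arrays were thus slightly more alike, and the cause was not tested. The steps were tested on simulated data. Tables and figures were made with Python 3.11.15, pandas 2.3.3, numpy 2.4.6 and matplotlib 3.10.9.

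The 6 genes, the lists and the arrays left out were chosen with earlier results of these data known. The genes named are the 6, every listed gene called in any comparison, up to 4 genes per list with the smallest p between the oils, and the 8 genes most alike. Alternatives covered the filter, the choice of feature, normalisation, variance, array weights, the groups in the fit, the replicate number as a block, the threshold and the arrays. Leaving out arrays for the other listed genes and the markers was added after the data were seen. Gene positions other than promoter windows are not given.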

Additional observations from a re-analysis of the deposited data

Results flagged for a closer look

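Of 24 sets of values, 6 genes in 4 groups of 8 rats, 2 held a value far from the others of its group, and chance gives about 1 in 20. Both came from ALA rat 3. Its Hsd17b7 value was 4.50, below the next lowest of 4.77, a gap of 0.595 of the group's whole range where 0.526 is the limit for 8 values. Its Gramd1b value was 7.42, above the next highest of 6.87, a gap of 0.602 of the range. Without this rat the difference between ALA and LA rats was 0.31 for Hsd17b7 and 0.40 for Gramd1b, against 0.27 and 0.49 with it.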

How the results depend on the processing

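Over 47 alternatives, or 46 for Idi1 and Sqle, 27 of the 36 differences of the 6 genes kept their sign throughout. Many alternatives could not change a given difference, such as those on the filter, the prior, the threshold or rats of other groups. Between ALA and LA rats the ranges were 0.25 to 0.33 for Sc5d, 0.23 to 0.32 for Hsd17b7 and 0.28 to 0.57 for Gramd1b, and none of the 6 genes was called under any alternative. The count of the 6 genes called between LA rats and lean controls, 1, became 0 with no filter, with every feature tested, after a second quantile normalisation, with a robust prior and without LA rats 7 and 8, and was 0 to 1 when single arrays were left out. The replicate number as a block was tried although the labels do not pair the rats: it left 1 of the 6 genes called in that comparison and 0 in the others, and changed no call among the 6, while 245, 111 and 219 of all genes were called in obese controls, ALA rats and LA rats against lean controls, in place of 192, 97 and 177.

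The reversals were in small differences. ALA against obese controls gave for Idi1 0.0131 after a second quantile normalisation, 0.0084 with centred arrays, 0.0823 with array weights, 0.133 without obese controls 4 and 7, 0.193 without 6 arrays and -0.0671 to 0.072 without single arrays. In the same comparison Sc5d gave 0.0514 with weights, 0.0466 without obese controls 4 and 7 and 0.134 without 6 arrays. LA against obese controls gave for Idi1 0.0263 without obese controls 4 and 7 and 0.0605 without 6 arrays, and for Sqle 0.004 with weights, 0.0165 without obese controls 4 and 7 and -0.0389 to 0.0179 without single arrays. Obese against lean controls gave for Sqle 0.0241 without obese control 5, 0.0062 without 6 arrays and -0.0533 to 0.0298 without single arrays. Hsd17b7 there gave -0.0079 after a second quantile normalisation, -0.0107 with centred arrays, -0.0741 without obese controls 4 and 7, -0.0351 without 6 arrays and -0.0306 to 0.0475 without single arrays, and Gramd1b gave -0.114 without obese controls 4 and 7 and -0.0315 without 6 arrays. LA against lean controls gave for Sqle 0.0024 with weights and -0.0603 to 0.0228 without single arrays, and ALA against lean controls gave for Fdft1 -0.0625 to 0.0058 without single arrays. Pmvk between ALA and LA rats gave 0.0175 without 6 arrays. The causes were not tested.

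Of all genes, 1 was called between ALA and LA rats without obese controls 4 and 7, with no filter and with every feature, and 1 between LA rats and obese controls with no filter and with every feature, in place of 0. Obese against lean controls gave 316 with weights and 354 at an adjusted p below 0.1. ALA against lean controls gave 313 with weights, 252 with only these groups, 171 below 0.1, 146 without LA rats 7 and 8, 155 without obese controls 4 and 7, 263 without 6 arrays and 50 to 120 without single arrays. LA against lean controls gave 369, 320, 294 and 317 with weights, below 0.1, without obese controls 4 and 7 and without 6 arrays, and 110 to 241 without single arrays. Idi1 and Sqle gave no value with the dimmest 50% of genes left out. The number of arrays limits the precision, with a median SE of 0.0875 between the oils.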
